A study of Mus musculus with 5 samples.

Results

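Keratins and other intermediate filament genes were followed in mouse cells with liver or neural features, namely the keratin genes Krt7, Krt8, Krt18, Krt19, Krt20 and Krt23 and the genes of vimentin (Vim), desmin (Des), nestin (Nes) and glial fibrillary acidic protein (Gfap). The 10 genes were chosen by name, with every non-control probe that carries the symbol or an accession of the gene, which gave 15 of the 41174 probes and 10 of the 28786 genes on the array. Of them 9 were tested among 19310 genes, and Gfap was not, since none of its 3 probes was well above background on any array. The induced hepatic progenitor cells (iHPC) were made from a neural progenitor line with retroviral pMXs vectors, which carried 9 transcription factors for iHep-9F (iHPC 9F) and 10 for iHep-10F (iHPC 10F). The neural line, NSBAg2, comes from the embryonic stem cell line BAg73C2, in which a beta-geo cassette is knocked into Afp, the gene of alpha-fetoprotein, so the iHPC and the neural line carry that allele in common. The drug G418 was given from week 3 after infection and for 1 week, which kept cells that expressed the cassette from the Afp locus. The hepatic progenitor cells (HPC) are the lines HB1, of strain C57BL6J, and HNG2, from STOCK Tg(Nanog-GFP, Puro)1 Yam mice, both from fetal liver of stage E13.5. The neural progenitor cells (NPC) are NSBAg2 itself. There were 2 iHPC arrays, 2 HPC arrays and 1 NPC array. No label calls the arrays of a group repeat cultures, so p-values rest on the spread between 9F and 10F and between HB1 and HNG2, and the fit takes the lone NPC array to have the same spread.

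Intermediate filaments are the rope-like part of the cytoskeleton, and each cell type builds them from its own set of proteins. Keratins assemble only as pairs of an acidic type I chain and a basic type II chain. Krt8 (type II) and Krt18 (type I) are the pair of simple epithelia and the keratins of hepatocytes, while Krt7 (type II) and Krt19 (type I) are added in bile duct cells and other duct epithelia. Krt20 is a type I keratin of intestinal epithelium and of the surface cells of the urothelium, and Krt23 is a type I keratin that is induced in injured mouse liver. Vimentin and desmin are type III proteins, of mesenchymal cells and of muscle and hepatic stellate cells. Glial fibrillary acidic protein is the type III protein of astrocytes, and nestin is a large protein of neural progenitors that assembles with vimentin.

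Mouse type I keratin genes are clustered on chromosome 11 and type II genes on chromosome 15, and Krt18, though type I, lies at the edge of the chromosome 15 cluster beside Krt8. The stretch before the start of transcription is shown for 4 keratins. Krt8 and Krt18 are the neighbours of which only Krt18 was well above background in NPC. Krt7 and Krt20, like Krt8, were lower in iHPC than in HPC. The sequences are from RefSeq (GRCm38.p6) and hold the 250 bases before the start, on the gene's strand: chr15:102004343-102004592 on the minus strand for Krt8, chr15:102027966-102028215 on the plus strand for Krt18, chr15:101412153-101412402 on the plus strand for Krt7 and chr11:99438154-99438403 on the minus strand for Krt20. Capitals mark 3 motifs searched on both strands, the TATA box TATAAA, the GC box GGGCGG and the CACCC box CCACCC.
Krt8: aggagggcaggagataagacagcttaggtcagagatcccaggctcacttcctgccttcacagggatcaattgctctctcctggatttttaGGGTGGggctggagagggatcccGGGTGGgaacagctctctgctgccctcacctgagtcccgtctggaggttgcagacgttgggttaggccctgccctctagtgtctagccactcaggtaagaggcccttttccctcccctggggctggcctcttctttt
Krt18: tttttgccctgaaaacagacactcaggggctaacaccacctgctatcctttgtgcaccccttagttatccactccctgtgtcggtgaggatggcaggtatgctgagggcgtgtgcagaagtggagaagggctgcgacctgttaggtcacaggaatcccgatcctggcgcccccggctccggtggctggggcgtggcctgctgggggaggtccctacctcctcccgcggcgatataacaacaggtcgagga
Krt7: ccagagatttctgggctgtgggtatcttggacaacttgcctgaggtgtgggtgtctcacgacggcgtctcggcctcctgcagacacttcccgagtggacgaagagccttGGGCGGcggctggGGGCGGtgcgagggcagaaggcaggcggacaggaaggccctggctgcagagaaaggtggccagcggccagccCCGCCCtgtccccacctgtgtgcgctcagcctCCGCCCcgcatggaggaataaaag
Krt20: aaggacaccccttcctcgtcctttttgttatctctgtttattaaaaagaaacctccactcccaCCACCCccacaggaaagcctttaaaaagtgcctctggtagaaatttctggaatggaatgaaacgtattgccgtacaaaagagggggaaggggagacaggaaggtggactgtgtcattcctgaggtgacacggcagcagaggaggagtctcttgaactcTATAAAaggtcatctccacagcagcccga
The Krt7 stretch held 4 GC boxes and none of the other motifs, and the Krt8 stretch held 2 CACCC boxes. Krt20 had a TATA box 29 bases before the start and 1 CACCC box, and the Krt18 stretch held none of the 3 motifs as spelled here. The stretch of Krt23, the keratin that was higher in iHPC than in HPC, is not shown and also held none of them. Over 32851 promoter stretches of this length, 12.4% held the TATA box, 32.7% the GC box and 28.1% the CACCC box. No motif was found in more than 1 of these 4 stretches except the CACCC box, in Krt8 and Krt20. Such matches describe the letters and not factor binding. An entry was there for 9 of the 10 genes, Krt19 being the other.

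Levels below are log2 of the background-subtracted signal of a probe relative to the 75th percentile of the non-control spots of its array, so a level of 0 is as bright as that percentile and each further unit is a doubling. A probe is well above background where Agilent's own test says so for its spots, and otherwise only an upper bound is known. Each array had 43379 non-control spots, of which 58.9% to 65.6% passed Agilent's background test and 0 were saturated, and the lowest level well above background lay between -6.62 and -5.19. iHPC and NPC were scanned on 1 day and each HPC array on a day of its own, so scan day and cell type cannot be told apart where HPC are compared. All 6 hepatoblast markers were well above background on both iHPC and both HPC arrays and 2 on the NPC array. Of 8 neural progenitor markers 6 were on each iHPC array, 3 and 5 on the HPC arrays and 7 on the NPC array. Levels of different probes are not compared with each other, since probes differ in brightness.

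**Figure D1:**
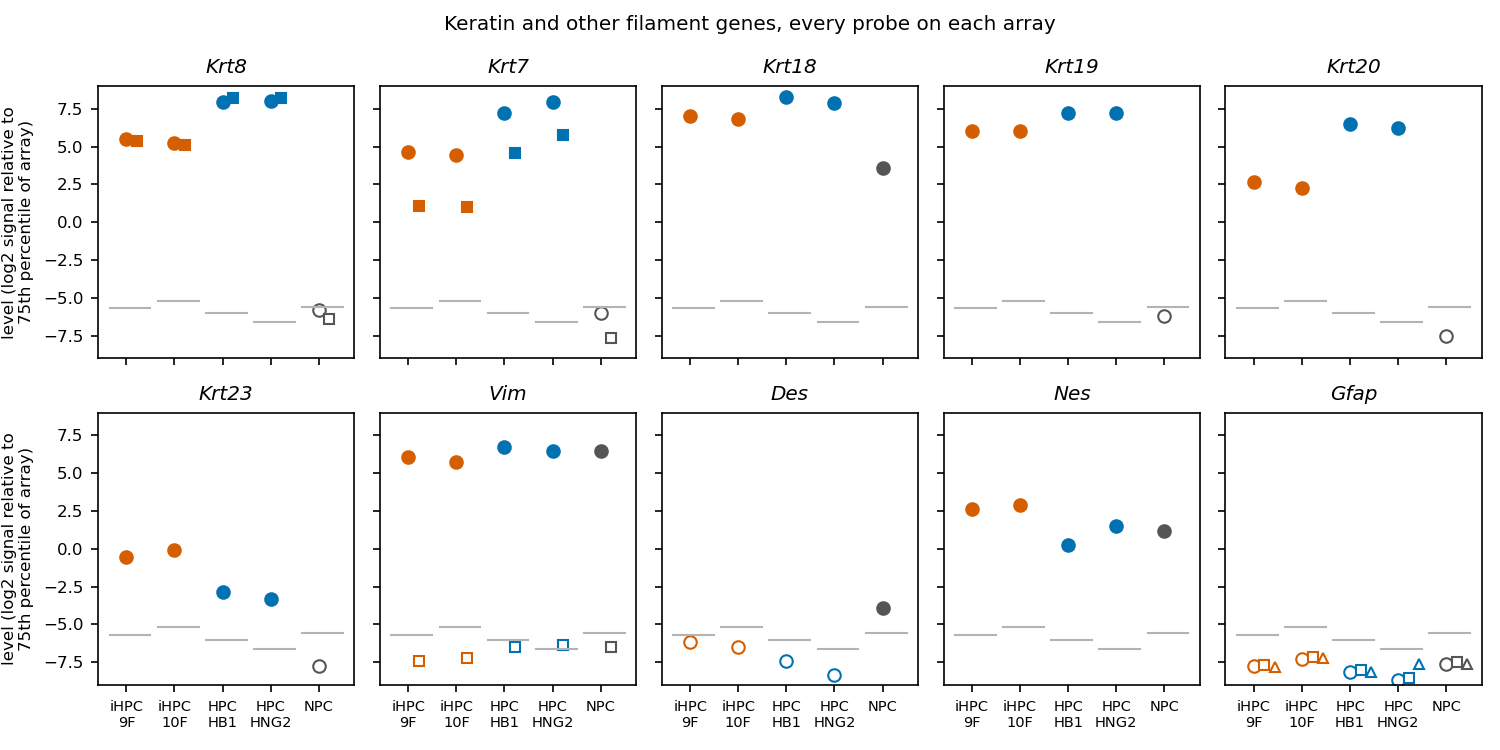
Level (log2, vertical axis) of every probe of the 10 genes on the 5 arrays, iHPC in orange, HPC in blue and NPC in grey. Circles are the probe that stands for the gene, squares and triangles other probes, filled symbols are well above background and grey lines give the lowest level well above background of the array. Krt8, Krt7, Krt19, Krt20 and Krt23 are filled on the iHPC and HPC arrays and open on the NPC array. Krt18 and the Vim circles are filled throughout, the Vim squares are open throughout, and Des is filled in NPC alone.

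The first comparison asked which filament genes set the induced cells apart from the neural line they came from. All 6 keratin genes were higher in iHPC, and 5 of them were not well above background on the NPC array. The pair of simple epithelia split, since Krt18 already had a clear signal in NPC and Krt8 did not. Vim, Des and Nes did not pass the test. By limma, 6 of the 9 tested genes rose and 0 fell in iHPC against NPC, where 5.64% of all tested genes were called, 2.8% higher and 2.85% lower. The 5 keratin genes dim in NPC entered the test only because they were bright in the liver cells, so this count is a description.

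Krt8 was at 5.48 and 5.22 in iHPC 9F and 10F, against -5.78 in NPC, where it was not well above background (chr15:101982940-101982999 in build mm7, minus strand). It was at least 1970-fold higher in iHPC, a bound set by the lowest signal well above background or the probe's own, whichever is higher (limma adjusted p = 0.0206). Its partner Krt18 (chr15:102018067-102018126, plus strand) was at 7.02 and 6.80 in iHPC, against 3.55 in NPC. Here both cell types were measured, and Krt18 was 10.3-fold higher in iHPC, a log2 difference of 3.36 with a standard error (SE) of 0.31 (limma adjusted p = 0.0303). Both iHPC arrays lay above NPC for both chains of the pair.

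Of the duct keratins, Krt19 (chr11:100250117-100250176, minus strand) was at 6.04 and 6.06 in iHPC, against -6.18 in NPC, which puts it at least 3198-fold higher (limma adjusted p = 0.0185). The type II chain Krt7 (chr15:101413898-101413957, plus strand) was at 4.67 and 4.44 in iHPC and at -6.01 in NPC. Its bound was at least 1135-fold (limma adjusted p = 0.0264). The iHPC arrays were close to each other for Krt19 and Krt7 and far from the NPC array, where neither was well above background.

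Krt20 (chr11:99537501-99537560, minus strand) was at 2.64 and 2.26 in iHPC, against -7.50 in NPC, and so at least 264-fold higher (limma adjusted p = 0.0257). Krt23 (chr11:99587118-99587177, minus strand) was at -0.55 and -0.10 in iHPC, against -7.77 in NPC, and so at least 38.5-fold higher (limma adjusted p = 0.0267). On the NPC array the processed signal of the Krt20 and Krt23 probes was a surrogate that Agilent's software puts in for values near background.

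The bounds against NPC rest on the processing. Normexp background correction was run with an offset of 50 added to every signal, which by itself shrinks differences from a dim array. The parts of the offset and of the correction were not separated. With normexp the differences against NPC were smaller, though all 6 keratins still passed, at 9.11 for Krt19, 8.25 for Krt8, 7.56 for Krt7, 5.70 for Krt20 and 3.14 for Krt23, each below the log2 of its bound, while that of Krt18 was 3.37. With dim probes kept in the test, Krt18 no longer passed (adjusted p = 0.0530), which left 5 genes. The count of 6 became 0 when iHPC 9F or iHPC 10F was left out (adjusted p between 0.229 and 0.260 for the 6 genes), which leaves the spread of the HPC pair alone, and 8, with Des and Nes, without HB1, without HNG2 or with scan day as a block, settings that leave the spread to the iHPC pair. Within the slide that iHPC 10F shared with NPC, which gives no test, the difference was 11.01 for Krt8, 3.25 for Krt18 and 12.24 for Krt19.

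**Figure D2:**
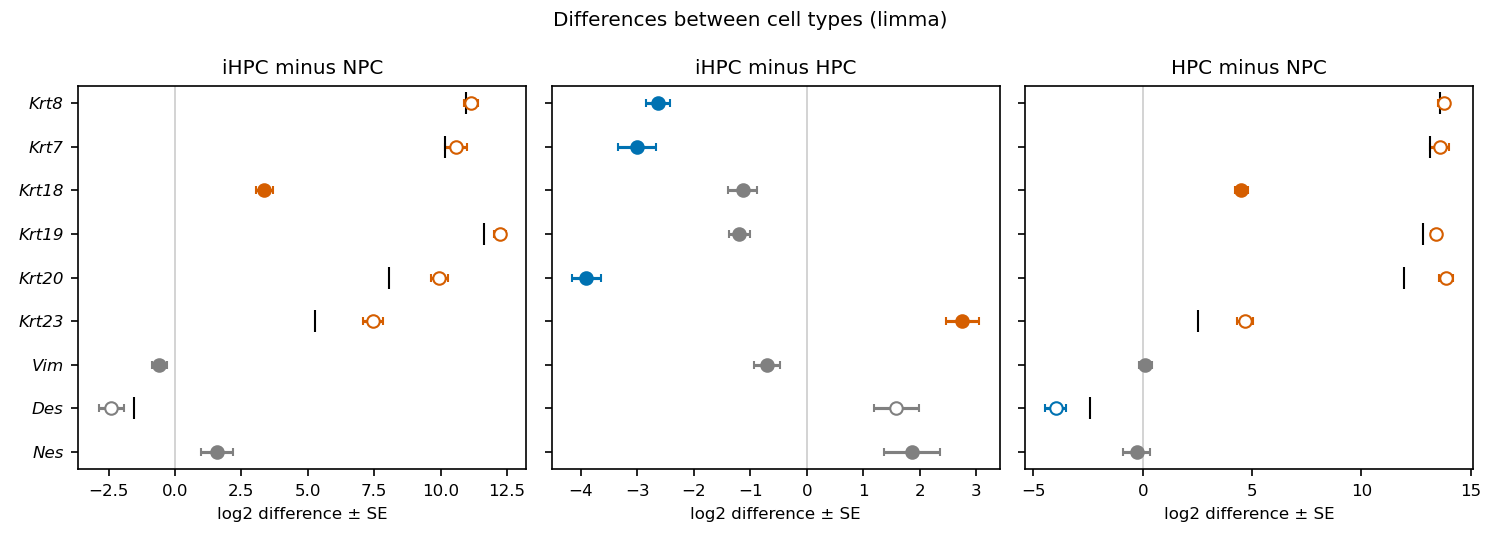
Log2 difference of each tested gene in the 3 comparisons (horizontal axis, with SE from limma; the scales of the panels differ), orange where called higher, blue where called lower and grey where not called at an adjusted p of 0.05. Open circles have a cell type with no signal well above background, and black ticks give the bound that holds then. The keratins lie right of 0 against NPC, while in iHPC minus HPC Krt20, Krt7 and Krt8 lie left of 0 and Krt23 lies right.

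In the second comparison, the induced cells were set against progenitors taken from fetal liver. Krt20, Krt7 and Krt8 were lower in iHPC than in HPC, and Krt23 was higher. Krt18 and Krt19, the type I partners, differed by less and did not pass. Vim, Des and Nes did not pass either. By limma, 3 of the 9 tested genes fell and 1 rose in iHPC against HPC, where 5.43% of all tested genes were called, 1.88% lower and 3.55% higher.

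Krt20 was at 2.64 and 2.26 in iHPC, against 6.50 and 6.21 in HPC lines HB1 and HNG2. The groups lay far apart, and Krt20 was 14.95-fold lower in iHPC (log2 difference -3.90, SE 0.25, limma adjusted p = 0.0206). Krt7 was at 4.67 and 4.44 in iHPC and at 7.19 and 7.93 in HPC, with HNG2 the higher line, and was 8.03-fold lower in iHPC (log2 difference -3.005, SE 0.34, limma adjusted p = 0.0373). Krt8 was at 5.48 and 5.22 in iHPC and at 7.94 and 8.03 in HPC, 6.21-fold lower in iHPC (log2 difference -2.63, SE 0.21, limma adjusted p = 0.0236). The order of levels for Krt20, Krt7 and Krt8 was thus HPC, then iHPC, then NPC.

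Krt23 ran the other way. Its level was -0.55 and -0.10 in iHPC, against -2.86 and -3.30 in HPC, and it was 6.75-fold higher in iHPC (log2 difference 2.75, SE 0.30, limma adjusted p = 0.0352). Krt23 was the keratin among the 6 whose highest levels were in the induced cells. Krt7 and Krt23 no longer passed when dim probes were kept in the test (adjusted p = 0.0609 and 0.0591), which tests 28770 genes.

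Krt18 was at 7.02 and 6.80 in iHPC, against 8.26 and 7.85 in HPC, a log2 difference of -1.14 (SE 0.25, limma adjusted p = 0.0984). Krt19 was at 6.04 and 6.06 in iHPC, against 7.25 and 7.24 in HPC, a log2 difference of -1.19 (SE 0.18, limma adjusted p = 0.0594). Krt18 and Krt19 both passed with normexp background correction (limma adjusted p = 0.0449 for Krt18 and 0.0253 for Krt19) and with a mean-variance trend (0.0496 and 0.0221). A difference of Krt18 and Krt19 between iHPC and HPC was therefore called or not depending on these settings.

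The count of 4 genes between iHPC and HPC became 8, all but Vim, without HB1 or without HNG2 and 0 without iHPC 9F or without iHPC 10F (adjusted p between 0.204 and 0.326 for the 4 genes). It was 6 with normexp and 2 with dim probes kept.

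Within an array, the difference between 2 probes shows whether their genes changed unequally. Krt8 minus Krt18 was -1.55 and -1.58 in iHPC, against -0.32 and 0.18 in HPC, so this ratio of the pair was lower by 1.496 on the log2 scale in iHPC than in HPC. Krt7 minus Krt19 was -1.37 and -1.62 in iHPC, against -0.06 and 0.69 in HPC, lower by 1.81. In these pairs of a type II and a type I gene the arrays of iHPC and HPC did not overlap. Those of Krt7 minus Krt8, both type II, did not overlap either (-0.81 and -0.78 in iHPC, -0.75 and -0.10 in HPC). How often other pairs of genes lack overlap was not counted. An exact permutation test of 2 arrays against 2 (two-sided) gave p = 0.333 for each, the smallest it can give.

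The third comparison gives the difference between fetal liver progenitors and the neural line. All 6 keratin genes were higher in HPC than in NPC, and Des was lower. Vim and Nes did not pass. By limma, 6 of the 9 tested genes rose and 1 fell in HPC against NPC. Of all tested genes 15.7% were called, 6.68% higher and 8.97% lower. The NPC array is the same as in the first comparison, and the genes dim in it again entered the test only through the liver cells. Des entered it only through the NPC array, so these counts are a description.

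Krt8 was at 7.94 and 8.03 in HPC and Krt7 at 7.19 and 7.93, and in NPC neither was well above background (-5.78 and -6.01). For Krt19 the HPC lines were at 7.25 and 7.24, at least 7308-fold above NPC, and for Krt20 at 6.50 and 6.21, at least 3950-fold above NPC (limma adjusted p = 0.0096 for both). With normexp these differences were 10.33 and 9.62 on the log2 scale, again below the bounds. Krt18, measured in both cell types, was 22.7-fold higher in HPC (log2 difference 4.503, SE 0.31, limma adjusted p = 0.0126). Krt23 was at -2.86 and -3.30 in HPC, at least 5.71-fold above NPC (limma adjusted p = 0.0138), and it did not pass with normexp, where the difference was 0.90 (adjusted p = 0.0744). Des was at -7.44 and -8.31 in HPC, where its probe was not well above background, against -3.90 in NPC. That puts it at least 5.31-fold lower in HPC, a bound of 2.41 on the log2 scale (limma adjusted p = 0.0240). As Des was tested only because it was bright in NPC, this call describes the difference and is not further support for it. Over the alternative settings the Des difference was as small as -1.26, so this bound too rests on the processing.

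Leaving out iHPC 9F or iHPC 10F, or fitting HPC and NPC alone, gave 0 of 9 genes (adjusted p between 0.0680 and 0.0954 for the 7 called genes), as the spread then came from the HPC pair.

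Krt8 and Krt7 each had another probe. The other Krt8 probe (chr15:101983072-101983131) lay 72 bases away and was at 5.37 and 5.10 in iHPC, against 8.20 and 8.20 in HPC and -6.43 in NPC, where it was not well above background. In a fit of all 27942 tested probes its difference was -2.97 between iHPC and HPC (limma adjusted p = 0.0219), beside -2.63 for the probe used. The other Krt7 probe (chr15:101409444-101409503), 4394 bases away, was at 1.10 and 0.99 in iHPC, against 4.57 and 5.75 in HPC and -7.68 in NPC. Its difference between iHPC and HPC was -4.12 (limma adjusted p = 0.0377), beside -3.005. Both extra probes were also called higher in iHPC and in HPC against NPC, where the fit of probes called 5.15% of probes in iHPC against NPC, 4.96% in iHPC against HPC and 15.2% in HPC against NPC. The probes of each gene thus had the same direction in the 3 comparisons. On the dimmer Krt7 probe the difference was larger between iHPC and HPC and smaller against NPC, where neither probe was well above background.

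Of the filament genes of non-epithelial cells, Vim (chr2:13521763-13521822, plus strand) was bright on every array, at 6.04 and 5.74 in iHPC, 6.72 and 6.47 in HPC and 6.48 in NPC. It had a difference of -0.59 between iHPC and NPC (SE 0.29, limma adjusted p = 0.315) and of -0.71 between iHPC and HPC (SE 0.23, limma adjusted p = 0.168), and neither difference passed. Between HPC and NPC the difference was 0.12 (SE 0.29, limma adjusted p = 0.80), and it turned to -0.19 with quantile normalization. The liver cells with their high keratin levels thus also had Vim well above background. The other Vim probe, of another transcript, was not well above background on any array.

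Des (chr1:75593023-75593248, plus strand), the filament of muscle and stellate cells, is printed on 10 spots. In NPC all 10 spots were well above background, between -4.19 and -3.65. In iHPC 9F 0 of 10 spots and in iHPC 10F 0 of the 7 spots left after outlier flags were, and in HPC 1 of 10 in HB1 and 0 of 10 in HNG2. Des was at least 2.89-fold lower in iHPC than in NPC, which did not pass (limma adjusted p = 0.0877), but passed with quantile normalization (adjusted p = 0.0199) and with scan day as a block (0.0114). It did not pass with dim probes kept (0.143), with a mean-variance trend (0.113) or with normexp (0.167). With normexp the difference was -0.61, smaller than the bound of 1.53 on the log2 scale. The brightest iHPC 9F spot, at -5.39, did not pass though the lowest level well above background there was -5.67. The lowest level well above background on the NPC array was -5.59, so its Des signal was weak.

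Nes (chr3:88094187-88094246, plus strand) is also printed on 10 spots, and all were well above background on all arrays, with a spot-to-spot SD between 0.03 and 0.06. It was at 2.66 and 2.87 in iHPC, against 0.28 and 1.52 in HPC and 1.18 in NPC. The iHPC arrays were the highest, and NPC lay between the HPC lines. The difference was 1.58 between iHPC and NPC (SE 0.61, limma adjusted p = 0.2375) and 1.86 between iHPC and HPC (SE 0.50, limma adjusted p = 0.128). Nes passed against NPC with scan day as a block (adjusted p = 0.0153), where only the iHPC pair gives the spread. The HPC lines were 1.25 apart, where the median absolute difference between these arrays over all tested genes was 0.529. The order of HPC and NPC for Nes turned with the line used: the difference between HPC and NPC was -0.28 (limma adjusted p = 0.772), 0.34 without HB1 (0.237) and -0.90 without HNG2, where it passed (0.0400).

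Gfap (chr11:102996643-102996703, minus strand, for the probe printed on 10 spots) was not well above background on any array with any of its 3 probes, NPC included. The 10 spots ran between -7.98 and -7.09 in iHPC, between -8.95 and -8.02 in HPC and between -7.88 and -7.40 in NPC. These values lie below the lowest level well above background of each array, so no order between the cell types can be read. Its probes say only that Gfap was not detectable at this sensitivity.

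**Figure D3:**
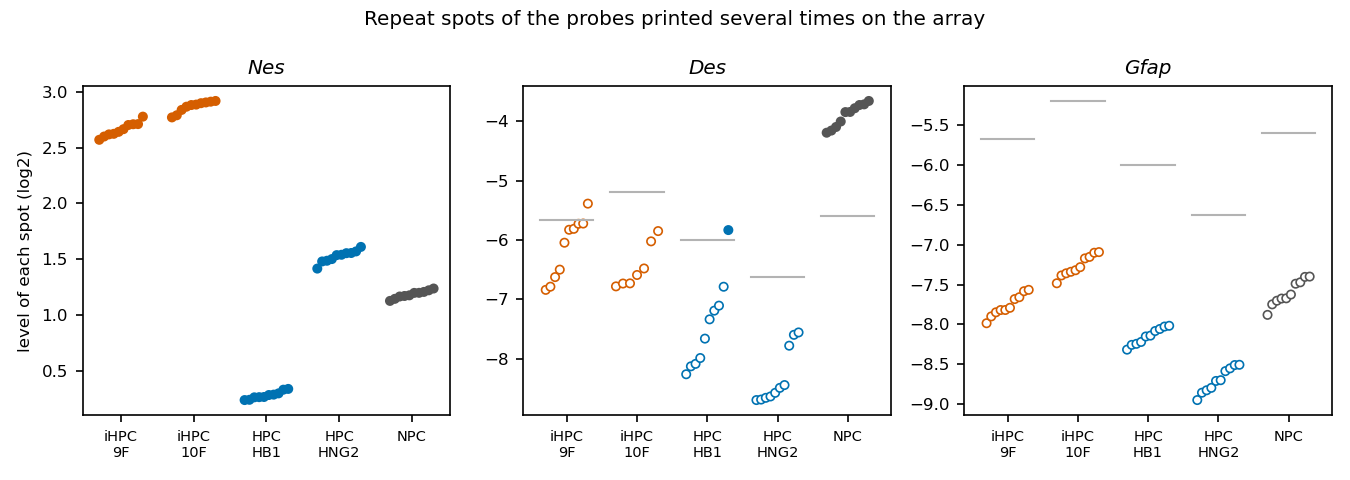
Level of each repeat spot (log2, vertical axis; the panels have their own scales) of the Nes, Des and Gfap probes printed on 10 spots, sorted within an array. Filled spots are well above background and grey lines give the lowest level well above background of the array. Nes spots form tight groups with both iHPC arrays on top, Des is filled on all spots of the NPC array and on 1 spot of HB1, and all Gfap spots are open and below the line.

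The arrays within a group can be set side by side without a test. Between iHPC 10F and 9F the members' median absolute difference was 0.25, against 0.149 over all tested genes, the largest being 0.45 for Krt23 and -0.37 for Krt20. Krt19 differed by 0.02. Between HNG2 and HB1 the median was 0.41, against 0.529 over all tested genes, with 1.25 for Nes and 0.74 for Krt7, while Krt19 differed by -0.01 and Krt8 by 0.09. Krt8 and Krt19 were the closest under this scaling, and with median centring they differed by 0.37 and 0.27.

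Markers of other cell types give the setting of these levels, and in bulk RNA fewer cells of a type and less RNA per cell cannot be told apart. Signal is summed here over the markers of a list, in multiples of the array's 75th percentile. Of 6 intestinal markers 5 were well above background on each iHPC and each HPC array, with sums of 68.4 and 65.0 in iHPC, 194 and 130 in HPC and 0.565 in NPC. Among them the intestinal regulator Cdx2 was at -0.29 and -0.83 in iHPC, against 4.70 and 4.37 in HPC, and was not well above background in NPC, while Cdx1 was not well above background on any array. The sums came mostly from Lgals4. Not every marker had the order of the sums and of Cdx2, HPC above iHPC above NPC. Vil1 was at 3.84 in HNG2, below both iHPC arrays (4.07 and 4.18). Fabp2 was at -5.26 and -4.98 in iHPC, below NPC (-4.74). The order of the sums is that of Krt20, and also that of Krt7, Krt8, Krt18 and Krt19. The part of the intestinal genes in these levels was not tested.

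Of 6 mesothelium markers 4 were well above background on each iHPC and HPC array and 1 in NPC, with sums of 25.6 and 13.8 in iHPC, 105 and 106 in HPC and 0.454 in NPC, nearly all of it Msln. Lrrn4 was not well above background on any array, and Upk3b was so on HB1 alone. Mesothelium also makes Krt7, Krt8, Krt18 and Krt19, and its part in their levels was not tested. The hepatoblast sum was 200 and 255 in iHPC, 119 and 22.5 in HPC and 0.308 in NPC. Krt23 shared this order of arrays and the other 5 keratins did not. On the iHPC and HPC arrays the sum came mostly from Afp, the locus of the G418 selection, and Apoa1, which had its order. The other hepatoblast markers did not. Hnf4a was lower on both iHPC arrays than on both HPC arrays, Alb and Ttr were highest in HB1, and Dlk1 was highest in HNG2. The part of the hepatoblast genes in the level of Krt23 was not tested. The cholangiocyte sum, at 241 and 193 in iHPC, 30.7 and 32.0 in HPC and 359 in NPC, came mostly from Spp1.

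For the non-epithelial members, 4 of 9 stellate and mesenchymal markers were well above background on each iHPC array, 4 and 6 on the HPC arrays and 5 in NPC, with sums of 12.7 and 13.1 in iHPC, 14.1 and 18.4 in HPC and 56.4 in NPC. The NPC sum came mostly from Col1a1, at 4.98, which was not well above background in iHPC. Of 8 muscle markers 4 were well above background on each iHPC array, 4 and 3 on the HPC arrays and 2 in NPC, with sums between 0.986 and 9.69, and Myf5 and Myh3 on no array. Neural progenitor sums were 1.92 and 2.04 in iHPC, 0.654 and 0.564 in HPC and 4.51 in NPC. Sox2 was at -3.57 and -4.41 in iHPC and 0.86 in NPC, an order opposite to that of Nes. Pax6, Slc1a3, Sox1 and Fabp7 were also lower in iHPC than in NPC. Prom1 (-0.50 and -0.43 in iHPC, -1.85 in NPC) and Msi1 (-0.95 and -0.95 in iHPC, -1.11 in NPC) were higher in iHPC, as Nes was. With HPC included neither had the order of Nes. Msi1 was highest in HB1 (-0.89), and Prom1 was lower in both HPC lines (-8.26 and -2.96) than in NPC. Of 6 astrocyte markers Aqp4 was well above background on HB1 alone, as Gfap was on no array, while the sums, 13.53 and 13.34 in iHPC, 5.51 and 1.95 in HPC and 27.1 in NPC, came mostly from Aldoc except in HNG2. The part of these cell types in Des and Nes was not tested. Stratified epithelium sums were 12.5 and 13.1 in iHPC, 15.8 and 19.9 in HPC and 13.1 in NPC, mostly from Sfn, and blood and endothelium sums were 0.575 and 0.632 in iHPC, 0.188 and 0.240 in HPC and 0.327 in NPC.

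Over both keratin clusters, 45 of 53 genes had a probe. Genes well above background numbered 21 and 18 in iHPC, 24 and 25 in HPC and 8 in NPC. On chromosome 15 the NPC array had Krt18, Krt84 and Krt5 above background, and Krt8, the neighbour of Krt18, was not among them, with 2 predicted loci (Gm36026 and Gm41404) between them in GRCm38.p6. Of the 21 cluster genes tested, 8 rose and 0 fell in iHPC against NPC, 1 rose and 3 fell in iHPC against HPC, and 9 rose and 0 fell in HPC against NPC. The members made up 6 of those 8, all 4 of those between iHPC and HPC, and 6 of those 9. Over all tested genes, 2.8% rose and 2.85% fell in iHPC against NPC. The shares were 3.55% and 1.88% in iHPC against HPC, and 6.68% and 8.97% in HPC against NPC. Of the cluster genes that rose against NPC, only Krt18 and Krt13 were well above background there. The others entered the test only through the liver cells, so these counts are a description.

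**Figure D4:**
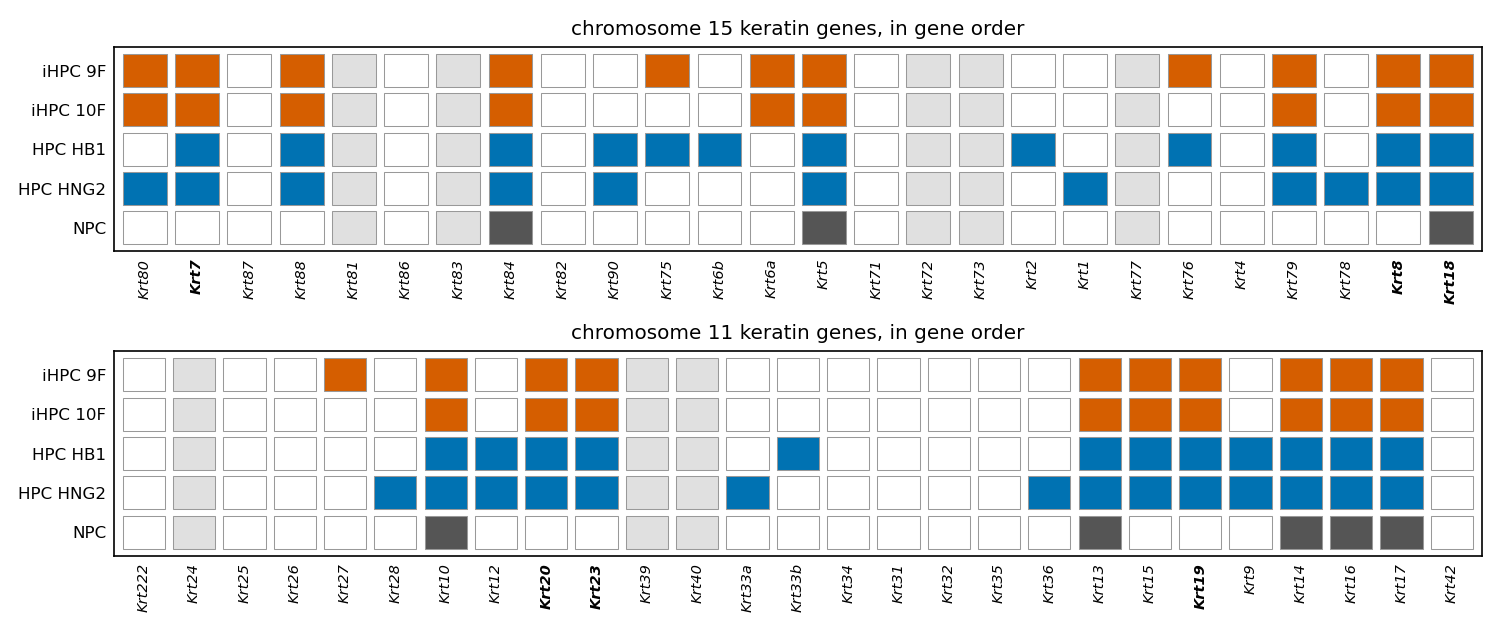
Keratin genes of the chromosome 15 cluster (top) and the chromosome 11 cluster (bottom) in gene order along the chromosome, one row per array. Filled squares are genes with a probe well above background (iHPC orange, HPC blue, NPC grey), white squares genes not well above background and pale grey squares genes with no probe; names in bold are members. The NPC rows have 3 filled squares on chromosome 15 and 5 on chromosome 11, against 9 to 12 and 9 to 14 in the other rows.

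The other keratins were mostly dim. Of 24 other type I keratins 21 had a probe and 8 were tested. In iHPC against NPC 2 rose and 0 fell (median log2 difference 0.24, all tested genes 0.03), 0 passed against HPC (4 at an unadjusted p under 0.05; median 0.38, all genes 0.05), and 2 rose in HPC against NPC (0.04, all genes -0.03). They were Krt13, a keratin of stratified mucosa, at 0.41 and -0.35 in iHPC, 2.33 and 1.69 in HPC and -4.12 in NPC (limma adjusted p = 0.0409 for iHPC and 0.0144 for HPC against NPC), and Krt15, a keratin of basal epidermal cells, at least 4.98-fold higher in iHPC and 3.41-fold in HPC (limma adjusted p = 0.0348 and 0.0280), and lost both calls with normexp (0.108 and 0.415). Of 24 other type II keratins 18 had a probe, 6 were tested and 0 passed with limma in iHPC against NPC (1 unadjusted; median 2.06) or HPC (2 unadjusted; 0.45). Of these 6, Krt6a, Krt79, Krt80 and Krt90 were not well above background in NPC. They were tested only through the liver cells, Krt90 through HPC alone, which raises the median against NPC. In HPC against NPC 1 rose, Krt90, at least 1.14-fold (median 0.83, limma adjusted p = 0.0399), a difference that turned to -0.10 with normexp. The keratins Krt5 and Krt14 of basal stratified epithelium were above background on all arrays, between -4.96 and -3.12, and Trp63, the regulator of that cell type, was on none.

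Of 6 other type III and type IV genes 4 were tested. In iHPC 2 rose and 0 fell against NPC (median 3.62) and 1 rose against HPC (1.41), and in HPC 2 rose against NPC (1.76). These medians mix genes dim on one side, since Synm and Nefh were not well above background in NPC, and Nefl, the light neurofilament gene, was well above it in NPC and not in iHPC, at least 5.02-fold lower in iHPC, which did not pass (limma adjusted p = 0.173). Prph, peripherin, a filament of peripheral neurons, was at 0.12 and 0.19 in iHPC, -1.38 and -1.77 in HPC and -3.51 in NPC, so it stepped down in the order iHPC, HPC, NPC (limma adjusted p = 0.0289 for iHPC against NPC, 0.0488 for iHPC against HPC and 0.0339 for HPC against NPC). Synm, synemin, which joins desmin and vimentin filaments, was at -1.90 and -1.47 in iHPC and -2.29 and -3.26 in HPC. In NPC it was not well above background, and it was at least 15.01-fold higher in iHPC and 7.06-fold in HPC (limma adjusted p = 0.0327 and 0.0259). Of the 5 lamin and lens filament genes 0 passed with limma in iHPC against NPC, iHPC against HPC or HPC against NPC (1, 1 and 2 unadjusted), with medians of 0.01, -0.09 and -0.02.

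Plakins and other linkers tie filaments to junctions, and 10 of 10 were tested. Dsp, desmoplakin, which anchors keratins at desmosomes, was at 0.76 and 1.02 in iHPC, 3.18 and 2.57 in HPC and -3.57 in NPC. It was higher than in NPC by 4.46 in iHPC (SE 0.38, limma adjusted p = 0.0301) and by 6.45 in HPC (limma adjusted p = 0.0112). Ppl, periplakin, was higher than in NPC by 4.75 in iHPC (limma adjusted p = 0.0285) and by 5.90 in HPC (limma adjusted p = 0.0114). Evpl, envoplakin, the partner of periplakin, was at -3.74 and -2.998 in iHPC, 0.15 and -0.50 in HPC and -3.18 in NPC. Between iHPC and HPC the log2 difference was -3.19 (limma adjusted p = 0.0453). Evpl was also higher in HPC than in NPC (limma adjusted p = 0.0411), and NPC lay between the iHPC arrays. In all 2 linkers rose and 0 fell in iHPC against NPC (median -0.32), 0 rose and 1 fell against HPC (-0.60), and 3 rose and 1, Syne3, fell in HPC against NPC (0.02).

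Of 9 chaperone, 14-3-3 and caspase genes that act on keratins all were tested, and Hspb1, a small heat shock protein that binds intermediate filaments, was the 1 that passed. It was at 4.54 and 4.73 in iHPC, 2.03 and 1.90 in HPC and 1.86 in NPC. The difference was 2.77 between iHPC and NPC (SE 0.25, limma adjusted p = 0.0301) and 2.67 between iHPC and HPC (SE 0.20, limma adjusted p = 0.0234), while 0 of the 9 passed between HPC and NPC (1 unadjusted). The list medians were 0.27 for iHPC against NPC, 0.19 for iHPC against HPC and -0.02 for HPC against NPC. As with the members, each call in these lists was lost without iHPC 9F or without iHPC 10F, and more of these genes in all passed without HB1 or without HNG2. With dim probes kept, the calls of Hspb1 (adjusted p = 0.0557), Krt13 (0.0650), Krt15 (0.0652) and Synm (0.0530) in iHPC against NPC were lost, as were those of Prph (0.0935) and Evpl (0.0688) in iHPC against HPC, and of Prph (0.0677), Evpl (0.0643), Krt15 (0.0552) and Krt90 (0.0760) in HPC against NPC. Synm also lost its call in HPC against NPC with normexp (0.0880) and in iHPC against NPC with probes averaged (0.0532), and Krt90 lost its call with a mean-variance trend (0.0849). Among the members and the called genes of these lists, Hspb1, Krt23, Nes, Prph, Synm and Krt15 were higher on both iHPC arrays than elsewhere.

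**Figure D5:**
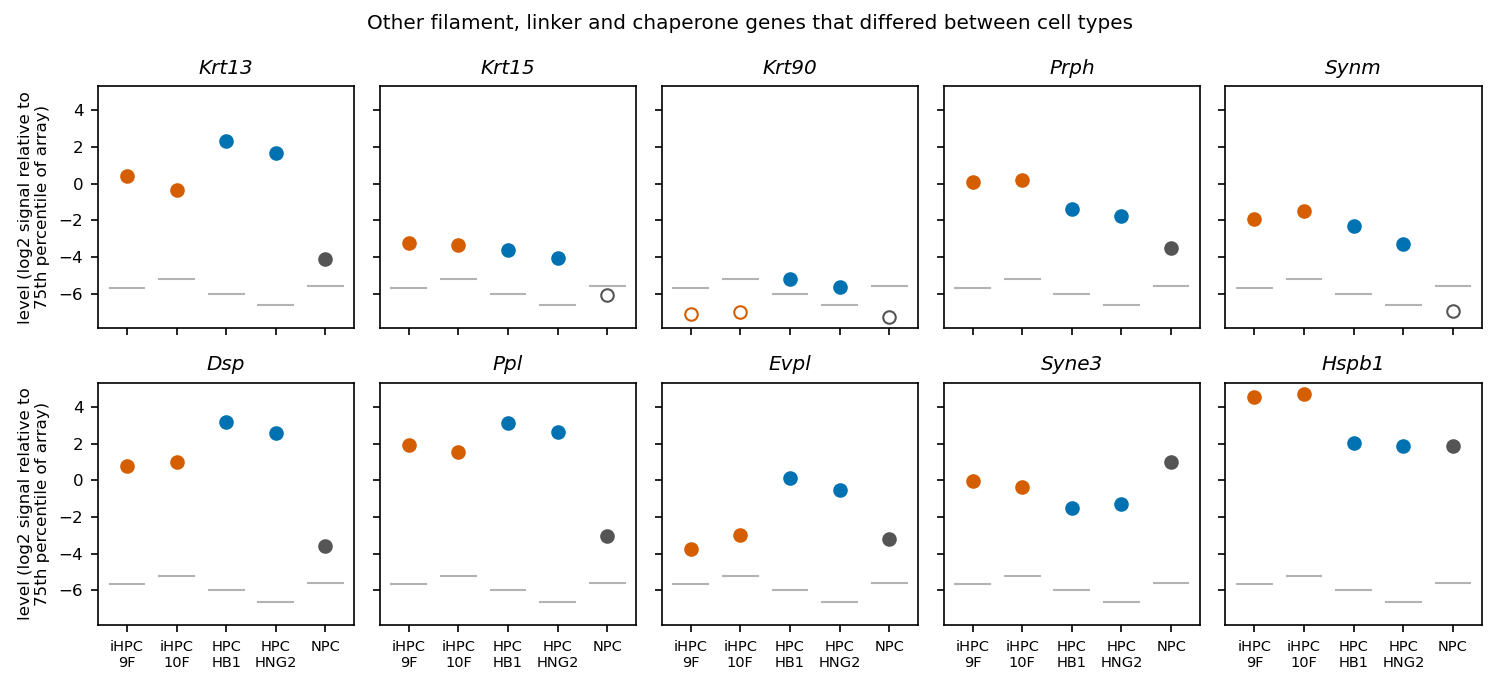
Level (log2, vertical axis) of the 10 other filament, linker and chaperone genes that passed in a comparison, on the 5 arrays (iHPC orange, HPC blue, NPC grey; filled where well above background; grey lines give the lowest level well above background). Dsp, Ppl and Krt13 are highest in HPC and lowest in NPC. Hspb1, Prph, Synm and Krt15 are highest in iHPC, and Evpl is high in HPC alone.

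Genes with the most similar profiles were found by Euclidean distance between levels over the 5 arrays after each gene's own mean was subtracted, among genes well above background on the same arrays (462 for the 5 keratins dim in NPC). Nearest to Krt8 was Perp, a desmosome protein (distance 1.65), followed by the claudin gene Cldn2. Nearest to Krt7 was Cldn2 at 1.64, and Perp was nearest to Krt19 at 1.42. Krt20 had Anxa13, an annexin of intestine (1.90), followed by Cldn2. Among the members Krt7 and Krt8 were closer to each other (0.685) than either was to those genes. Krt23 had Il1rn, the interleukin-1 receptor antagonist gene (1.03), Slc2a2 and Acnat2, and not another keratin, its nearest member being Krt18 at 4.36. Among 15104 genes bright on all arrays, Sema4a was nearest to Krt18 (0.38), S100a3 to Nes (0.40) and an unnamed transcript followed by Laptm4a to Vim (0.12 and 0.14). For genes dim on an array these distances rest on values near background there.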

How the data were processed

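RNA of 5 mouse cell lines was labelled with Cy3 and hybridised to 1-colour Agilent whole-genome arrays, per the labels' protocols. The deposited spot intensity was made by Agilent Feature Extraction 10.7.3.1, which per the file headers subtracted background and replaced values close to it by surrogates. The authors' series matrix holds the same intensity on 100% of spots (linear, not centred; column medians 41.5 to 69.3). The headers name no step that scales arrays to each other. Of 41174 probes, 22951 were named by accession and 6659 by symbol through RefSeq GRCm38.p6, and 11564 kept the file's name. Probe coordinates are mm7, per the file headers; exon and UTR positions were not analysed here.

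From the intensity, log2 was taken and the log2 75th percentile of the array (590.3 to 1074) subtracted. Controls and spots with an outlier flag were dropped, and the spots of each probe were averaged. A probe was well above background on an array where at least 50% of its spots were, and was tested where this held on all arrays of a group. The probe with the highest mean stood for a gene. Groups came from the labelled cell type and were compared with limma 3.58.1 in R 4.3.3 (lmFit, eBayes, two-sided, 2 residual degrees of freedom in 1 fit of 5 arrays) and Benjamini-Hochberg adjustment over 19310 genes at 0.05. The SD between arrays had a median over genes of 0.105 for iHPC and 0.374 for HPC. The number of arrays limits the precision. The scripts were tested on simulated data. Figures were drawn with matplotlib 3.10.9.

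The members, gene lists, markers and motifs were chosen with earlier results of these data known. All members are named, and of each list up to 4 called genes measured in both groups and up to 4 with the largest bound per comparison, plus the 3 genes most alike to each member, of which part is given. Alternatives covered normalization, background correction (normexp with an offset of 50), source of values, filter, probe summary, groups in the fit, model, batch and left-out arrays.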

Additional observations from a re-analysis of the deposited data

How the results depend on the processing

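The calls rest on which pair of arrays gives the spread. Over all settings that leave out 1 array, members called ranged from 0 to 8 in iHPC against NPC (6 in all arrays), from 0 to 8 in iHPC against HPC (4) and from 0 to 8 in HPC against NPC (7), with 0 always without iHPC 9F or 10F, where 7, 4 and 7 passed unadjusted. Genes called ranged from 0 to 6755 (1090), from 0 to 6992 (1048) and from 0 to 9763 (3023). At an unadjusted p under 0.05, limma gave 2125 and 2122, 1903 and 1936, and 3889 and 3889 genes without iHPC 9F and without 10F in these comparisons. Fitting only the groups compared gave 6755 genes for iHPC against NPC, as did scan day as a block, and 0 genes and 0 members for HPC against NPC (3889 genes and 7 members unadjusted). Keeping dim probes gave 305, 460 and 1643 genes, and 2 members in iHPC against HPC. With only probes well above background everywhere, which leaves 3 members, 1, 0 (3 unadjusted) and 1 were called, with 492 and 617 genes in the iHPC comparisons. Normexp gave 2109 genes in iHPC against HPC and 4745 in HPC against NPC. Signs turned in HPC against NPC, for genes that had not passed, Vim (-0.19 with quantile normalization, and -0.0096 to 0.24 over the settings that leave out an array) and Nes (0.0036 with median centring, and -0.90 to 0.34), and for Krt90 (-0.10 with normexp), which had passed. Median centring moved the median of all genes to 0.26 in HPC against NPC and to -0.19 in iHPC against HPC, from -0.03 and 0.05. Of the other values of members and named genes, 589 kept their side of the threshold or lay within the spread, 22 gained it, 7, between arrays of a group, moved by more than the spread and the rest lost it. Scan day as a block could be fitted for iHPC against NPC alone, and slide as a random block could not be fitted. No paired analysis was possible because the array numbers only name arrays in the order of listing and NPC has 1 array. Genes dim in NPC have bounds there, not folds.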
